A study of Mus musculus with 9 samples.

Results

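The mouse immunoglobulin loci are 3 stretches of the genome that hold the antibody genes: the heavy chain locus Igh (chr12:113258768-116009954), the kappa light chain locus Igk (chr6:67555636-70726754) and the lambda light chain locus Igl (chr16:19026858-19260844), all in mm10. The members are the CpGs inside these bounds that had at least 1 read in each of 9 reduced representation bisulfite sequencing (RRBS) libraries, which measure DNA methylation on the CpG-rich part of the genome. There were 476 of 1096949 such CpGs in all, with 91 in Igh, 351 in Igk and 34 in Igl. The DNA came from Abl.1, an immortalised B cell clone of a female F1 hybrid between the strains 129S1/SvImJ and CAST/EiJ. Cells grew for 2 days in medium with 1% DMSO as the control (2 libraries), or with 5-aza-dC at 0.2 µM (2 libraries), 2 µM (3 libraries) or 10 µM (2 libraries). Only live cells, recovered by density centrifugation, were used at every dose. The replicates are library preparations of a single cell clone, and the labels name no separate cultures, so the p-values may measure technical spread only.

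An antibody chain is assembled in developing B cells by joining a V segment to a J segment, with a D segment between them in the heavy chain, and the joined exon is then transcribed into a constant gene. The DNA between joined segments can be lost from a rearranged allele, and which segments are joined in Abl.1 is not given in the sources used here. In the B lineage, loss of DNA methylation at these loci is known to accompany their activation. The drug 5-aza-dC, an analogue of cytidine, is built into new DNA during replication, where it binds the methyltransferases that copy methylation to the new strand. The dose series bears on the place of DNA methylation in monoallelic expression, the subject of the series title.

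The promoters that RefSeq (GRCm38.p6) lists inside the loci are shown first, because they are poor in CG and hold no member. They belong to Adam6a, Adam6b and genes named Gm or LOC, and none belongs to a V, D, J or constant segment. The promoters of the antibody segments themselves were not examined. RRBS commonly uses an enzyme that cuts at CCGG, a site that reads the same on both strands. Of the 12 promoter windows of 300 bases inside the 3 loci, 1 (8.33%) held a CCGG, against 52.8% of all 32851 promoters. The median number of CG was 1 in the 12 windows and 7 over all promoters, and 4 of the 12 held no CG. None of the 476 members lay in a promoter window. Of the 3 windows printed here, Gm46962 is the window with the most CG and the CCGG, and Adam6a and Adam6b, testis genes of the ADAM family, lie nearest to members. Adam6b lies among the D segments of Igh, and Adam6a between the D segments and the first V segment. They are printed 5′ to 3′ on the gene's strand with each CG in capitals: Gm46962 at chr6:70220655-70220954 on the minus strand, Adam6a at chr12:113543658-113543957 and Adam6b at chr12:113489315-113489614, both on the plus strand.
Gm46962: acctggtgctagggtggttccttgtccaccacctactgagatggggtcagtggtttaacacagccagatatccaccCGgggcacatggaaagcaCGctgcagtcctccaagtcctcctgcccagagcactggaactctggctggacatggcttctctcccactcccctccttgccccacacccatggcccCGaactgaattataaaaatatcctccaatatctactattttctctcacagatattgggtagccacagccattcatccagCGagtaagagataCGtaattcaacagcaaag
Adam6a: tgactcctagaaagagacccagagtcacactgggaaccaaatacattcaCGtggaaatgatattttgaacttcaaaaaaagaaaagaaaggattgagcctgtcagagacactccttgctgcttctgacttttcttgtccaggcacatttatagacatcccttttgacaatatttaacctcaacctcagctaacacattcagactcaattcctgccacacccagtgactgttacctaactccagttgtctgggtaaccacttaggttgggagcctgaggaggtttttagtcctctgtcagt
Adam6b: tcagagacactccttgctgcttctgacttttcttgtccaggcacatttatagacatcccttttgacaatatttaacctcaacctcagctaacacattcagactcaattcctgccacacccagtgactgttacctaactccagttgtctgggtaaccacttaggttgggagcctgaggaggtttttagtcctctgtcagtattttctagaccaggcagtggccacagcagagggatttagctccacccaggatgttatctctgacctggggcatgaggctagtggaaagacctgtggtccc
Gm46962 held 5 CG, of which 1 was read, in 8 of 9 libraries, with 7 of 13 reads methylated. Adam6a held 1 CG and Adam6b none, and neither window was read. The last 199 bases of the Adam6a window are identical to the first 199 of the Adam6b window, so reads from the surroundings of these copies could be placed on either. The nearest member lay 519 bp from the Adam6a window and 573 bp from the Adam6b window.

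The libraries held 8590883 to 16495535 reads at CpGs. Over the members, the median number of reads per CpG was 2 to 6, depending on locus and library, against 5 to 10 over the other autosomal CpGs read in every library. Single CpGs are therefore not tested, and each library enters the tests of the loci with its mean over the members. Of 2381 CpGs of the 3 loci read in any library, 19.99% were read in all 9, against 40.8% of other autosomal CpGs. At the threshold of the rule, 300 CpGs were read in 8 of the 9 libraries. Their pooled DMSO level was 83.9%, and that of the members was 77.7%.

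In the DMSO control the immunoglobulin loci were highly methylated, and their mean level was lower at every dose, most at 0.2 µM and least at 10 µM. Of the 476 members, 313 (65.8%) had a DMSO level of 80% or above, 138 (29.0%) a level from 20% to under 80% and 25 (5.25%) a level under 20%. Among the 1068658 other autosomal CpGs, these shares were 28.9%, 17.1% and 54.0%. Averaged over the members of all 3 loci, the DMSO level was 80.3%, and the levels at 0.2, 2 and 10 µM were 39.7%, 49.99% and 65.6%. The order of the drug groups was thus the reverse of the order of dose.

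The heavy chain locus Igh stood at 79.6% and 79.9% in the DMSO libraries. The 0.2 µM libraries read 37.8% and 34.5%, the 2 µM libraries 44.3%, 48.1% and 45.8%, and the 10 µM libraries 60.4% and 59.8%. No group overlapped another, and each drug group was below DMSO in all its libraries. The mean fell from 79.7% ± 0.19 (SD, n = 2) to 36.1% ± 2.34 (n = 2), 46.1% ± 1.93 (n = 3) and 60.1% ± 0.45 (n = 2). Relative to the DMSO mean, 45.3%, 57.8% and 75.3% of the level was kept. The exact permutation test over the 4 groups gave p = 0.000794, the smallest the design allows, and 0.00357 after Benjamini-Hochberg adjustment over 9 such tests.

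The kappa locus Igk, the source of most mouse light chains, read 77.7% and 81.2% in DMSO and 39.3% and 41.4% at 0.2 µM. At 2 µM it read 49.3%, 51.2% and 48.2%, and at 10 µM 65.7% and 65.3%. The 4 groups were again apart from each other. The means were 79.4% ± 2.49 (SD, n = 2), 40.3% ± 1.48 (n = 2), 49.6% ± 1.51 (n = 3) and 65.5% ± 0.27 (n = 2), with 50.8%, 62.4% and 82.4% of the DMSO level kept. The exact permutation p was 0.000794 here too, 0.00357 after adjustment.

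The small lambda locus Igl had the highest levels of the 3. Its DMSO libraries read 89.2% and 92.5%, its 0.2 µM libraries 44.8% and 41.04%. The 2 µM libraries read 64.7%, 73.2% and 56.6%, a wider spread than in the other loci, and the 10 µM libraries 85.9% and 78.7%. Its means were 90.9% ± 2.35 (SD, n = 2), 42.9% ± 2.68 (n = 2), 64.8% ± 8.30 (n = 3) and 82.3% ± 5.11 (n = 2), on 34 CpGs. It kept 47.2%, 71.3% and 90.6% of the DMSO level. The groups did not overlap, with an exact permutation p of 0.00238 and an adjusted p of 0.00429. For each locus, single pairs of groups could not reach 0.05, because a two-sided exact test cannot go below 0.333 with 2 libraries on each side, or below 0.1 with 3 on one side.

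**Figure D1:**
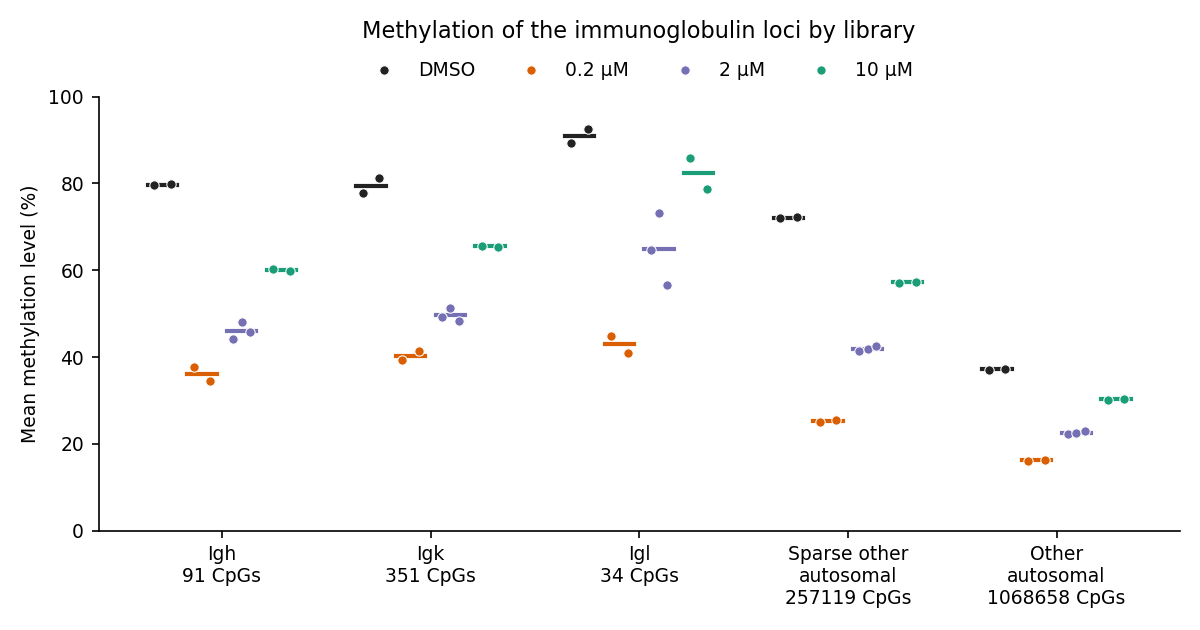
Mean methylation level (%) in each library over the member CpGs of Igh (91 CpGs), Igk (351) and Igl (34), over sparse other autosomal CpGs and over all other autosomal CpGs, coloured by group. Points are libraries and bars are group means: in all 5 sets DMSO is highest and 0.2 µM lowest, and Igl has the widest spread at 2 µM, from 56.6% to 73.2%.

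Among the loci, Igl lay above Igh in 9 of 9 libraries and above Igk in 8 of 9. The mean gap between Igl and Igk in DMSO was 11.5 percentage points. With 0.2, 2 and 10 µM of drug it was 2.62, 15.3 and 16.8 points, a description without a test. Igh and Igk were close in DMSO. Igh minus Igk was 0.31 points in DMSO and −4.20, −3.51 and −5.40 points with drug, a shift that did not pass the exact permutation test (p = 0.163, 0.209 after adjustment). Without 0.2 µM replicate 1, the same exact permutation gave p = 0.031 before adjustment.

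Against the rest of the autosomes, the loci started higher and their level fell by more percentage points, a result that depends on which CpGs they are set beside. Other autosomal CpGs averaged 37.2% in DMSO, and 16.2%, 22.6% and 30.3% at the rising doses. They thus kept 43.7%, 60.8% and 81.4% of their DMSO level. At 0.2 µM each locus kept a slightly larger share, with 45.3% in Igh, 50.8% in Igk and 47.2% in Igl. At 2 and 10 µM Igh kept a smaller share (57.8% and 75.3%), and Igk and Igl a larger one. The larger fall in points goes with the higher start and is not a larger share lost at 0.2 µM. The excess of Igh over them shrank from 42.6 points in DMSO to 19.9, 23.5 and 29.8 points at 0.2, 2 and 10 µM (exact permutation p = 0.00159, adjusted 0.00357). For Igk the excess was 42.3, 24.1, 27.0 and 35.2 points (p = 0.00159 by the same exact permutation, adjusted 0.00357). The excess of Igl, 53.7, 26.7, 42.3 and 52.0 points, gave p = 0.0381 by exact permutation and 0.0571 after adjustment, which misses the threshold.

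The other autosomal CpGs include the dense, mostly unmethylated CpG clusters that RRBS favours. In a comparison with the 257119 of them in 1 kb tiles holding 5 or fewer such CpGs, the picture changed. Of the members, 64.7% lay in tiles that sparse (92.3% in Igh, 55.8% in Igk and 82.4% in Igl), against 24.1% of all other autosomal CpGs, so Igk is only partly matched. These sparse CpGs averaged 72.1% in DMSO and 25.3%, 41.9% and 57.2% at 0.2, 2 and 10 µM, so they kept 35.1%, 58.1% and 79.3% of their DMSO level. The excess of Igh over them went from 7.66 points in DMSO to 10.8, 4.16 and 2.89 points with drug (exact permutation p = 0.00635). That of Igk was 7.35, 15.0, 7.67 and 8.29 points (exact permutation p = 0.0738), and that of Igl 18.8, 17.7, 22.9 and 25.1 points (exact permutation p = 0.592). At 0.2 µM the sign of the change in excess thus turned for Igh and Igk. All 3 loci lay above the sparse CpGs in 9 of 9 libraries. A further alternative, added after seeing the data, gave each cluster of CpGs the same weight, in the loci and in the other autosomal CpGs alike. It ended the call against all other autosomal CpGs for Igh (−3.48 points at 0.2 µM, exact permutation p = 0.115) and Igk (2.03 points, p = 0.564).

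The direction of change was the same at most members. At 0.2 µM, 427 of 476 CpGs (89.7%) had a group mean below DMSO, at 2 µM 410 (86.1%) and at 10 µM 298 (62.6%). Among sparse other CpGs the shares were 87.5%, 82.1% and 65.0%, and among all other autosomal CpGs 53.7%, 51.0% and 41.6%. The share of lower CpGs among members was closer to that of the sparse CpGs than to that of all other autosomal CpGs. In Igl, where 31 of 34 CpGs were lower at 0.2 µM, 16 were lower at 10 µM and 13 were equal to DMSO. The median in Igl was 2 to 3 reads per CpG in the DMSO and 10 µM libraries, so equal values can rest on few reads.

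The constant genes encode the part of the antibody that sets its class, and in the Igh constant part (chr12:113258768-113422730, 13 members) the DMSO libraries read 94.3% and 92.0%. Those at 0.2 µM read 48.4% and 44.9%, those at 2 µM 49.7%, 64.4% and 64.9%, and those at 10 µM 81.9% and 73.1%. In the Igh variable part (chr12:113572929-116009954, 67 members), DMSO read 75.7% and 76.1%, 0.2 µM 39.4% and 35.7%, 2 µM 43.3%, 46.4% and 43.4%, and 10 µM 55.6% and 55.5%. The constant part was above the variable part in 9 of 9 libraries, by 17.2 points on average in DMSO and by 9.12, 15.3 and 21.9 points at 0.2, 2 and 10 µM. The exact permutation test did not find that this gap differed between the groups (p = 0.332, adjusted 0.373). Since members were the CpGs RRBS could read, these 13 sites sat beside and between the constant genes, at distances from 3803 bp (near Ighg1, an IgG1 constant gene) to 20357 bp from the nearest immunoglobulin gene. No constant gene of the 3 loci had 10 reads in every library within 1 kb.

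In Igl, constant and variable parts alternate, and the test found no difference in how they responded. The constant part (12 members) read 90.3% and 88.2% in DMSO, 34.7% and 43.8% at 0.2 µM, 51.3%, 75.1% and 60.0% at 2 µM, then 84.7% and 65.3% at 10 µM. The variable part (22 members) read 88.6% and 94.9%, then 50.4% and 39.5%, then 71.9%, 72.2% and 54.8%, and last 86.6% and 86.0%. Libraries of the same dose differed widely in these few CpGs, and the gap between the parts was not found to differ between groups (exact permutation p = 0.887, also after adjustment). Without DMSO replicate 1 or without 0.2 µM replicate 1, its change at 0.2 µM turned from negative to positive (0.9905 and 6.80 points). In Igk the constant part around the only kappa constant gene (chr6:70704178-70726754) had 1 CpG with a read, in 1 library, and no member, so all 351 Igk members belong to the variable part and no comparison could be made.

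The stretch of Igh with the D and J segments (chr12:113422731-113572928), between the constant and the variable part, had the lowest level at 0.2 µM of the parts. This stretch was singled out after its values were seen, so no test is given. Its 11 members read 85.9% and 88.6% in DMSO, 15.6% and 14.8% at 0.2 µM, 43.6%, 39.5% and 37.9% at 2 µM, then 63.9% and 69.7% at 10 µM. They kept 17.4%, 46.2% and 76.6% of the DMSO level, where the variable part kept 49.4%, 58.5% and 73.2%. Sparse other autosomal CpGs kept 35.1%, 58.1% and 79.3%. Low levels at 0.2 µM also occurred in the variable part, where the 1 kb tile at chr12:113693001-113694000 averaged 9.26%. The stretch stood 11.4 points above the variable part in DMSO, and the same difference was −22.3, −4.05 and 11.2 points at the rising doses.

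The 11 CpGs of this stretch form 5 clusters, taken as runs of members at most 300 bp apart. The cluster with the most CpGs, 4 at chr12:113488695-113488742, 573 bp from the Adam6b window, read 91.7% and 87.5% in DMSO, 15.0% and 18.8% at 0.2 µM, 37.5%, 43.8% and 0% at 2 µM, then 100% and 75.0% at 10 µM, on 4 to 24 reads per library. The pair at chr12:113543137-113543139, near the Adam6a window, read 100% and 87.5% in DMSO and 29.2% and 0% at 0.2 µM, on 2 to 32 reads. At chr12:113552624-113552680, 20249 bp from the V pseudogene Ighv5-1, the level was 69.2% and 71.4% in DMSO and 0% and 8.33% at 0.2 µM. The level of the 5 clusters averaged 4.17% to 23.8% at 0.2 µM, against 70.3% to 100% in DMSO. Few reads lie behind each, and CpGs of a cluster share reads, so they are not independent sites.

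**Figure D2:**
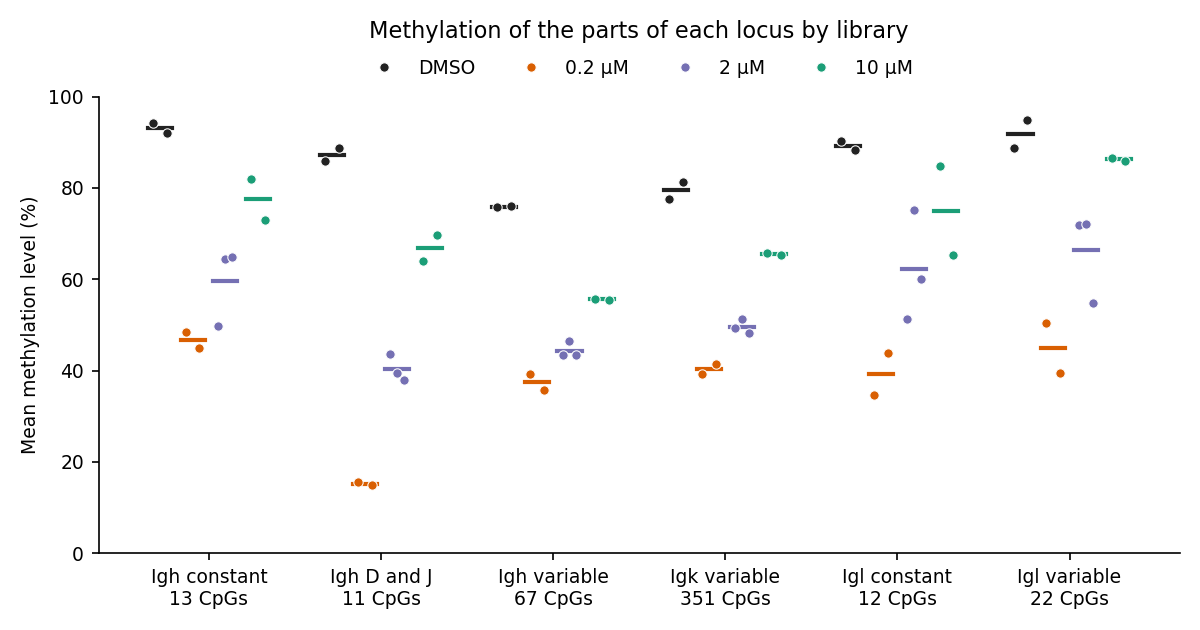
Mean methylation level (%) in each library over the members of the constant, D and J and variable parts of Igh, the variable part of Igk and both parts of Igl, coloured by group. Points are libraries and bars are group means: the 0.2 µM libraries of the Igh D and J part, at 15.6% and 14.8%, lie below the libraries of every other part.

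Along the variable parts, each cut into 4 equal stretches from the J segments outward, the mean level lay below DMSO at every dose in every stretch. In Igh the DMSO level was 74.9%, 78.7%, 67.8% and 99.0% from the nearest to the farthest stretch, and at 0.2 µM 35.9%, 46.3%, 30.9% and 32.7%. The farthest stretch of Igh, with 6 CpGs, read 30% at 2 µM and 55.8% at 10 µM. In Igk the DMSO level was 74.3%, 73.7%, 85.3% and 80.8%, and at 0.2 µM 36.0%, 36.7%, 43.0% and 44.7%. CpGs within 1 kb of a V segment (33 CpGs) averaged 81.1% in DMSO and 42.3%, 52.3% and 68.8% at 0.2, 2 and 10 µM. The 385 CpGs farther away averaged 78.7%, 39.7%, 48.4% and 63.5%, close to the first set at every dose.

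The members fell into 154 clusters over the 3 loci, of which 50 were single CpGs. The median cluster lay 7804.5 bp from the nearest immunoglobulin segment, 9 lay within 1 kb of a segment and 2 overlapped one. RRBS thus read these loci mostly between the segments. At 0.2 µM 147 of the 154 clusters had a mean below DMSO, at 2 µM 136 and at 10 µM 112. The median change of a cluster was −43.8, −31.1 and −12.9 points.

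**Figure D3:**
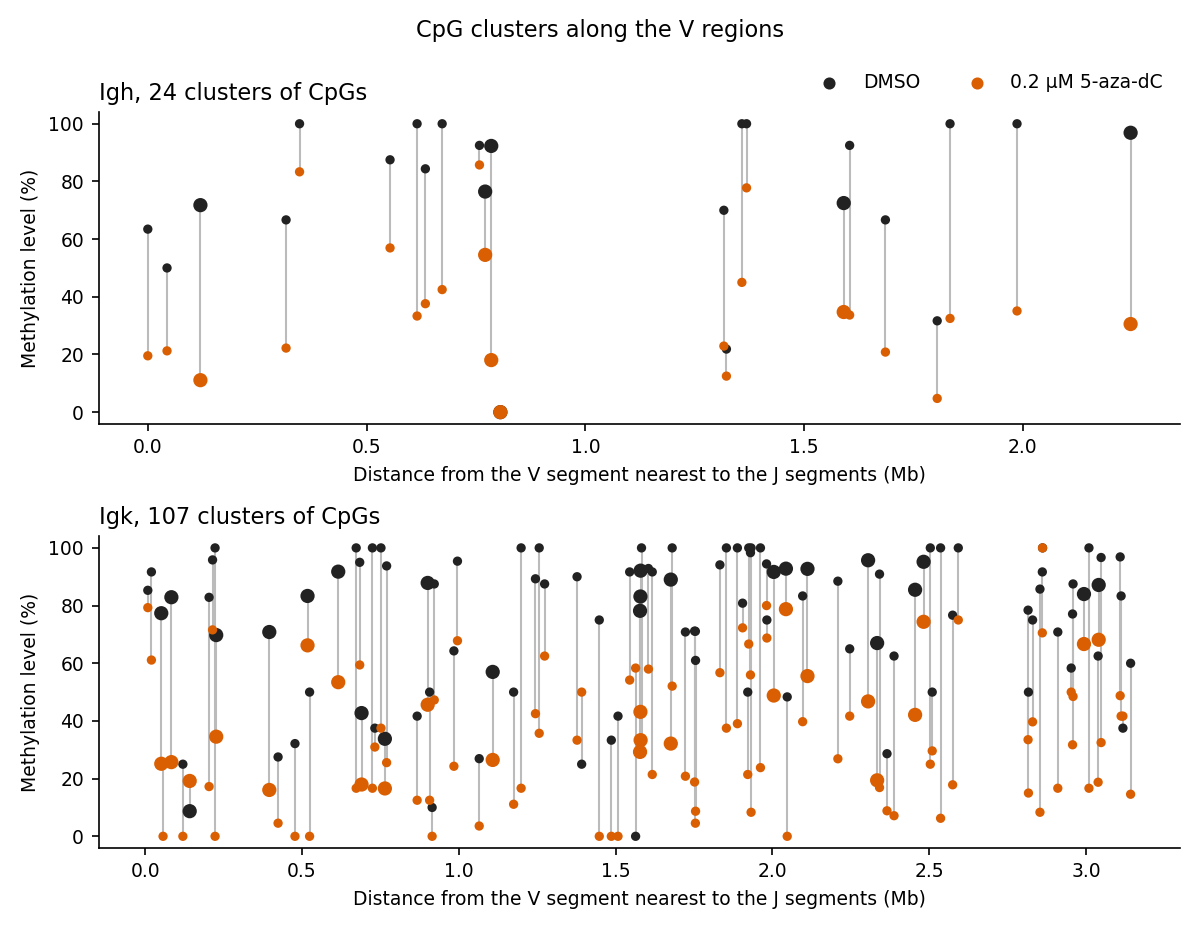
Mean methylation level (%) in DMSO and at 0.2 µM of the 24 clusters of member CpGs in the Igh variable part and the 107 in Igk, against their distance in Mb from the V segment nearest to the J segments. Grey lines join the group means of a cluster and larger points mark clusters with 10 or more reads per library: the 0.2 µM point lies below the DMSO point in most clusters along both loci.

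A few clusters were unmethylated in the control. The 3 CpGs at chr12:114378813-114378848 in the Igh variable part, 11994 bp from the V segment Ighv12-3, read 0% in 8 libraries and 2.94% in 10 µM replicate 1, on 12 to 34 reads. The 3 CpGs at chr6:70562283-70562327, 7843 bp from the V pseudogene Igkv3-11, read 8.33% and 9.09% in DMSO. They read 27.3% and 11.1% at 0.2 µM, 20.8%, 7.69% and 35.0% at 2 µM, then 0% and 11.1% at 10 µM, on 18 to 36 reads. These clusters had little methylation to lose, while most members had a DMSO level of 80% or above.

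Reads at all CpGs read in any library, members or not, were then summed in 1 kb tiles. The libraries may thus cover different CpGs of a tile. Tiles with at least 10 reads in every library were tested across the genome with a binomial model whose dispersion was moderated with limma. Of 624 tiles of the 3 loci with reads, 41 passed this filter (9 in Igh, 30 in Igk and 2 in Igl), and 34 of these had a DMSO level of 70% or above. At 0.2 µM, 32 of the 41 tiles (78.0%) were lower than DMSO at an adjusted p under 0.05, where 62.3% of all 66788 tiles were. They were 7 tiles of Igh, 23 of Igk and 2 of Igl. At 2 µM 26 tiles (63.4%) were lower, where 48.3% of all tiles were, and at 10 µM 4 tiles (9.76%), where 12.5% of all tiles were. The median change of the 41 tiles was −39.7, −31.3 and −13.6 points, against −32.8, −22.6 and −7.56 over all tiles, many of which start near 0%.

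No immunoglobulin tile passed as higher than DMSO at any dose by this limma-moderated test (0 of 41 in each, against 0.0344%, 0.105% and 0.0973% of all tiles at 0.2, 2 and 10 µM). At an unadjusted p under 0.05 the counts of higher tiles were 0, 0 and 1, and limma on the tile levels also called 0 at each dose. Between doses, the tiles that passed were higher at the higher dose. At 10 µM, 19 of 41 tiles were higher than at 0.2 µM (39.2% of all tiles were). Of the 41, 3 were higher at 2 µM than at 0.2 µM, against 8.46% of all tiles, and 3 at 10 µM than at 2 µM, against 6.08%. None of the 41 was lower at the higher dose in these limma-moderated comparisons (0.323% of all tiles for 2 against 0.2 µM, 0.0165% for 10 against 2 µM and 0.0764% for 10 against 0.2 µM), with 1, 0 and 0 lower at an unadjusted p under 0.05 and 0 by limma on the levels. Counts at 2 and 10 µM depend on single control libraries. Without DMSO replicate 1, 14 tiles were lower at 2 µM and 1 at 10 µM, and without DMSO replicate 2, 17 and 1. The count at 10 µM fell to 2 without 0.2 µM replicate 1 or 2 or 10 µM replicate 1, and the 19 fell to 9 without 0.2 µM replicate 2. The 3 tiles higher at 2 than at 0.2 µM became 0 without either 0.2 µM library or 2 µM replicate 2, and 1 without either DMSO library or 2 µM replicate 3. The 3 higher at 10 than at 2 µM became 0 without either 10 µM library. With the dispersion prior taken from all tiles, an alternative added after seeing the data, the counts at 10 µM against DMSO, 2 against 0.2 µM and 10 against 2 µM were all 0 by the limma-moderated test, as they were over all 66788 tiles.

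**Figure D4:**
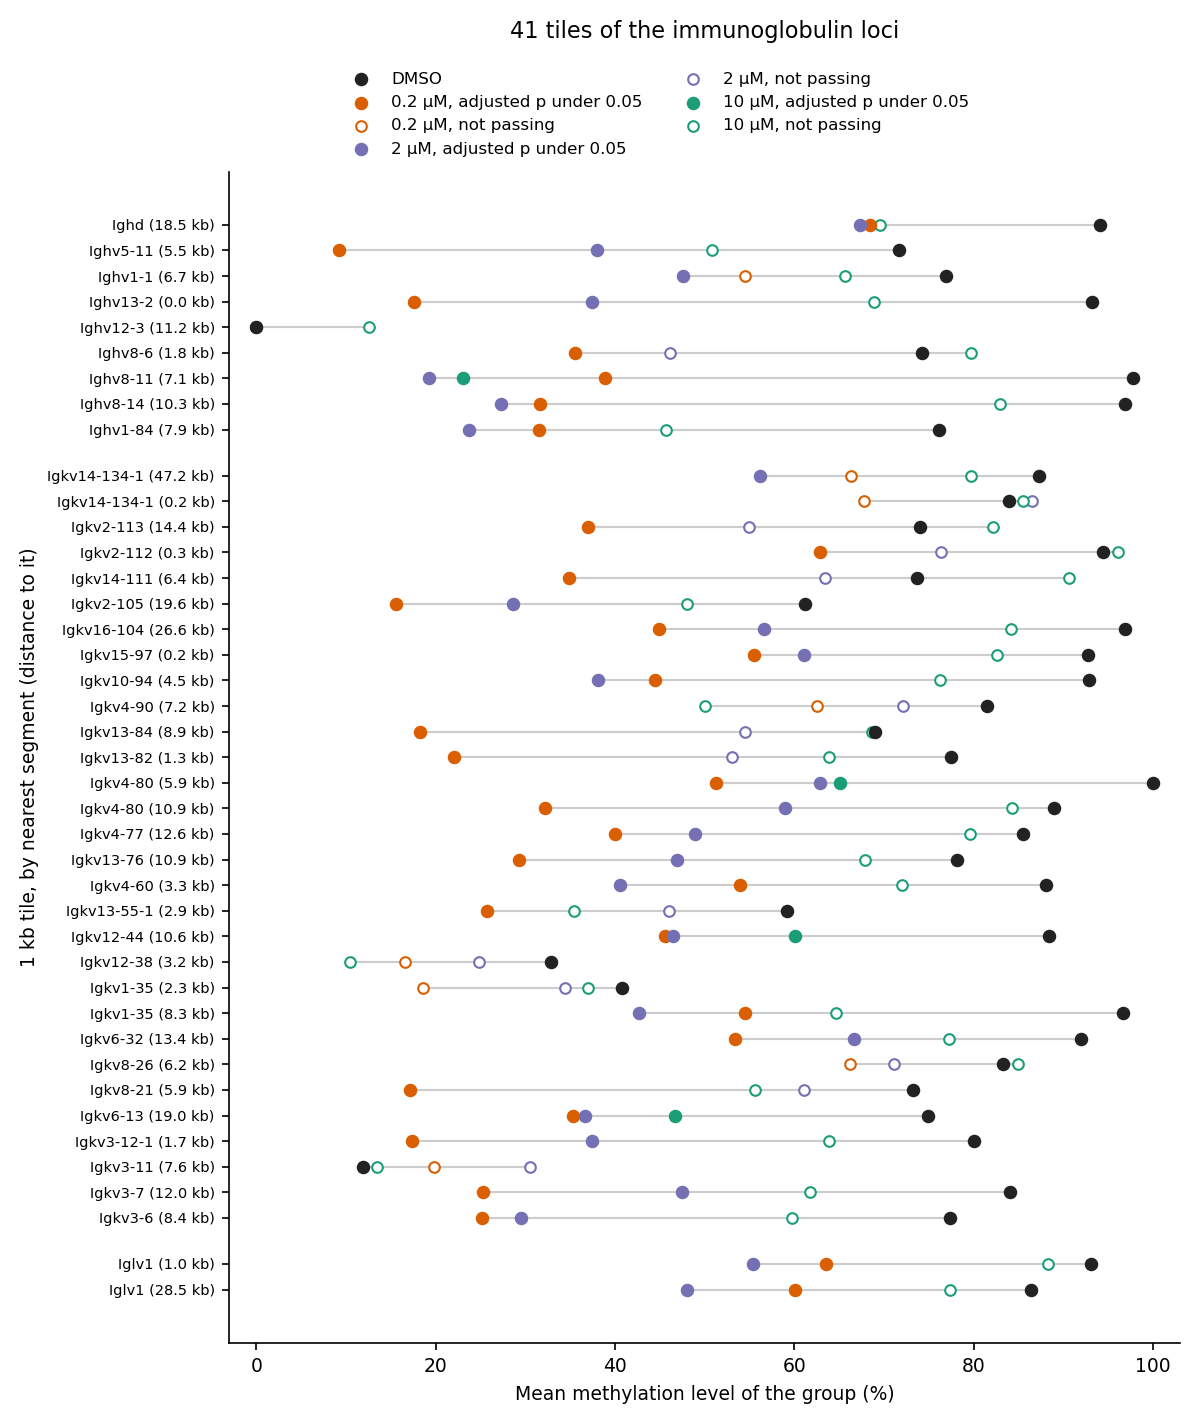
Mean methylation level (%) in each group for the 41 tiles of 1 kb, ordered by position within Igh, Igk and Igl and named by the nearest segment with its distance. Filled drug points passed an adjusted p of 0.05 against DMSO and open points did not. DMSO points lie to the right in most rows, and 4 rows have a filled 10 µM point.

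In Igh, the tile with the most reads stayed low at every dose. At chr12:115559001-115560000, which overlaps no annotated gene and lies 7149 bp from the V segment Ighv8-11, the DMSO libraries read 95.7% and 100%. The level was 42.4% and 35.3% at 0.2 µM, then 23.5%, 19.7% and 14.4% at 2 µM, then 22.2% and 23.9% at 10 µM, on 23 to 115 reads. The changes of −59.0, −78.6 and −74.7 points passed at each dose (adjusted p = 4.08e-05, 2.6e-06 and 0.000342, moderated with limma). Here the 10 µM libraries lay as low as those at 2 µM, unlike the mean over the Igh members, which rose from 46.1% to 60.1%. The test of 10 µM against 2 µM gave a difference of 3.86 points for this tile (adjusted p = 0.852). Its calls held without any single library, but the call at 10 µM was lost with the dispersion prior from all tiles (adjusted p = 0.099, where the other alternatives gave 0.00015 to 0.0382).

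Other Igh tiles had levels closer to the control at the highest dose. The tile at chr12:115819001-115820000, 10274 bp from the V segment Ighv8-14, read 93.8% and 100% in DMSO, 33.3% and 30% at 0.2 µM, 10.0%, 37.5% and 34.5% at 2 µM, then 76.0% and 90% at 10 µM. Its rise of 55.7 points from 2 to 10 µM passed (adjusted p = 0.0204, limma), and it was the Igh tile that did so. This call was lost without 2 µM replicate 1, without either 10 µM library and with the prior from all tiles (adjusted p = 0.0585, 0.0621, 0.0713 and 0.189). The tile at chr12:113693001-113694000, near the V pseudogene Ighv5-11, read 70.6% and 72.7% in DMSO and 6.98% and 11.5% at 0.2 µM, then 42.9%, 39.1% and 32.1% at 2 µM and 58.8% and 42.9% at 10 µM. It was the Igh tile higher at 2 µM than at 0.2 µM, by 28.8 points (adjusted p = 0.047, limma). That call held only without either 10 µM library, and the other alternatives that gave a value lost it (adjusted p from 0.0517 to 0.276). The tile at chr12:115989001-115990000 overlaps the gene Gm51964 and read 72.2% and 80% in DMSO, 21.1% and 42.0% at 0.2 µM, 14.3%, 22.2% and 34.6% at 2 µM, then 46.5% and 45.0% at 10 µM. This tile holds no member CpG.

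The tile of the Igh constant part, chr12:113388001-113389000, lies 18535 bp from Ighd, the constant gene of IgD, and read 95.5% and 92.9% in DMSO. The 7 libraries with drug read 58.6% to 79.2%. Its falls of 25.6 points at 0.2 µM and 26.8 at 2 µM (changes of −25.6 and −26.8) passed narrowly (adjusted p = 0.037 and 0.0304, limma), and did not pass without either DMSO library (adjusted p = 0.191 and 0.204 without replicate 1, 0.0921 and 0.0976 without replicate 2). The call at 0.2 µM was also lost without either 0.2 µM library, and that at 2 µM without 2 µM replicate 3 (adjusted p = 0.15, 0.0545 and 0.0943). Both were lost with the prior from all tiles (adjusted p = 0.0671 and 0.0652), and that at 2 µM with the replicate number as a block (0.0911). The unmethylated tile at chr12:114378001-114379000 read 0% in the 7 libraries at DMSO, 0.2 and 2 µM, but 2.94% and 22.2% at 10 µM, a difference that did not pass (adjusted p = 0.167, limma). The member CpGs of this tile, given above, were unmethylated in 10 µM replicate 2. Its 22.2% there thus came from CpGs of the tile that are not members, so the libraries compared differ in the CpGs covered.

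In Igk, 3 tiles were lower than DMSO at 10 µM. At chr6:70477001-70478000, 18965 bp from the V segment Igkv6-13, the level was 71.4% and 78.5% in DMSO, 34.4% and 36.2% at 0.2 µM, 28.6%, 42.7% and 38.6% at 2 µM, then 55.6% and 37.8% at 10 µM, over 40 CpGs and 45 to 138 reads. At chr6:69803001-69804000, 10631 bp from Igkv12-44, DMSO read 86.2% and 90.7% and 10 µM 60.7% and 59.5%. At chr6:69023001-69024000, near Igkv4-80, the 10 µM libraries disagreed, with 35.0% and 95.2% against 100% in both DMSO libraries. The adjusted p-values at 10 µM were 0.043, 0.0467 and 0.0375 (limma), close to the threshold. All 3 calls were lost with limma on levels and with the dispersion prior from all tiles. None of the 3 passed at 10 µM without either DMSO library, and the fall of the last shrank to −4.76 points without 10 µM replicate 1 (adjusted p = 0.652).

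The most-read Igk tile, chr6:70088001-70089000 at 13417 bp from Igkv6-32, read 92.6% and 91.3% in DMSO, 50.5% and 56.2% at 0.2 µM, 62.6%, 55.7% and 81.6% at 2 µM, then 65.6% and 88.9% at 10 µM, on 63 to 147 reads. It passed at 0.2 and 2 µM (adjusted p = 0.000201 and 0.00299, limma) and not at 10 µM (0.137). The call at 2 µM was lost without DMSO replicate 1 (0.0556) and with limma on levels (0.0627). At chr6:69124001-69125000, 12569 bp from the pseudogene Igkv4-77, the level was 77.1% and 94.0% in DMSO, 32.1% and 47.9% at 0.2 µM, 45.3%, 46.1% and 55.6% at 2 µM, then 76.4% and 82.7% at 10 µM. The rise from 2 to 10 µM, 30.6 points, passed (adjusted p = 0.0232, limma). It did not pass without 2 µM replicate 2 or either 10 µM library, with limma on levels or with the prior from all tiles (adjusted p from 0.0506 to 0.189). The tile with the smallest adjusted p at 0.2 µM in Igk was chr6:70620001-70621000, near Igkv3-7, with 88.1% and 80% in DMSO and 11.1% and 39.5% at 0.2 µM (adjusted p = 7.52e-05, limma).

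In some Igk tiles the fall passed at 0.2 µM and not at the higher doses. The tile at chr6:68949001-68950000, 8934 bp from Igkv13-84, read 71.4% and 66.7% in DMSO and 16.9% and 19.6% at 0.2 µM, a change of −50.8 points (adjusted p = 0.000195, limma). It then read 57.4%, 60.3% and 45.8% at 2 µM, then 62.3% and 75.0% at 10 µM. It was higher at 2 µM than at 0.2 µM by 36.3 points (adjusted p = 0.0182, limma). This rise did not pass without either 0.2 µM library, without 2 µM replicate 2 or with the prior from all tiles (adjusted p from 0.0510 to 0.159). The tile at chr6:68799001-68800000, near Igkv4-90, ran the other way, with 81.8% and 81.1% in DMSO, 75.0% and 50.0% at 0.2 µM, 70%, 77.3% and 69.2% at 2 µM, then 56.4% and 43.8% at 10 µM. None of its changes against DMSO passed (adjusted p = 0.118, 0.53 and 0.112, limma). In all, 6 of the 41 tiles, all in Igk, had a lower mean at 10 µM than at 2 µM.

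For both Igl tiles the nearest segment was Iglv1, a lambda V segment, at 1017 bp from the first and 28541 bp from the second. At chr16:19083001-19084000 the level was 94.4% and 91.7% in DMSO, 64.6% and 62.5% at 0.2 µM, 48.5%, 48.1% and 69.6% at 2 µM, then 76.7% and 100% at 10 µM. At chr16:19114001-19115000 it was 82.4% and 90.5%, then 60.5% and 59.6%, then 46.9%, 45.8% and 51.3%, and last 84.1% and 70.6%. Both were lower at 0.2 µM (adjusted p = 0.0259 and 0.0497, limma) and at 2 µM (0.00764 and 0.00865). In these tiles the mean was lower at 2 µM than at 0.2 µM, the opposite of the mean over the Igl members. Neither difference passed (adjusted p = 0.722 and 0.565, limma). The calls at 0.2 µM did not hold without either DMSO or either 0.2 µM library (adjusted p from 0.0595 to 0.272). The call at 2 µM was lost for the first tile without DMSO replicate 1 (0.103) and for the second without DMSO replicate 2 (0.116).

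A member lay within 1 kb of 5 of 215 annotated segments in Igh, 4 of 168 in Igk and none of 12 in Igl, and 3 of these 9 segments had at least 10 reads in every library. Around Ighv13-2, a V segment (3 CpGs, 18 to 36 reads), the level was 84.6% and 100% in DMSO, 25.0% and 11.1% at 0.2 µM, 56.3%, 33.3% and 32.1% at 2 µM, then 66.7% and 77.8% at 10 µM. The 4 groups did not overlap. The pseudogene Igkv15-97 (10 CpGs) read 98.0% and 87.5% in DMSO, 50.0% and 61.1% at 0.2 µM, 40%, 71.4% and 71.1% at 2 µM, then 100% and 63.6% at 10 µM. The pseudogene Igkv14-134-1 (5 CpGs, 15 to 30 reads) read 84.0% in both DMSO libraries, 80% and 53.3% at 0.2 µM, and 84.0% to 90% in the 5 libraries at 2 and 10 µM. V segments of a family are alike in sequence, so reads of near-identical copies could be misplaced between them.

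The drug groups also had more reads on the members. Per 1000000 reads at CpGs, the DMSO libraries held 119 and 148 reads on the members, and the group means were 186, 203 and 203 at 0.2, 2 and 10 µM, which is 1.39, 1.52 and 1.52 times the DMSO mean of 134. The drug and DMSO libraries did not overlap. Sparse other autosomal CpGs moved alike, by 1.44, 1.51 and 1.43 times, and all other autosomal CpGs by 0.92, 0.95 and 0.96. The part of this shift in coverage in the methylation changes was not tested.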

How the data were processed

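DNA methylation was measured by RRBS in 9 libraries, in the groups given above. The genome build was mm10, per the submitters' processing notes, and for the aligner and methylation caller no name is given in the sources used here. Each deposited line gave a CpG position, methylated over all reads as text, and a score, which in each line equals 1000 times the methylated share after rounding down. The authors' deposited scores were used for that check only. Between 1 and 2 lines of unusual width and 18 to 68 lines at repeated positions were left out per library. The unit of the other deposited column, methylated and total reads, gave all levels.

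A level is methylated over all reads of a CpG, and a library's value is the unweighted mean over the members. Depth was 8590883 to 16495535 reads per library. Parts were bounded by the RefSeq segments (GRCm38.p6): all 256267 CpGs read inside promoter windows matched a CG there. The 4 groups were tested by exact permutation of the between-group sum of squares over 7560 assignments of the libraries (smallest p 0.000794). Tiles of 1 kb summed the reads of all CpGs read in any library and needed 10 reads in every library. They were tested with a binomial model over all 66788 tiles, with read numbers scaled to their effective size and the dispersion moderated with limma 3.58.1, using a trend taken from tiles at 10 to 90%, a choice made after seeing the data. Benjamini-Hochberg adjustment ran over all tiles of a comparison. Tested on simulated data with 200 of 66788 tiles changed by 1.5 in log odds, the test called 36, 45 and 25 of them at 0.2, 2 and 10 µM against DMSO, all with the right sign, and 6, 0 and 0 unchanged tiles. It thus missed many changes of that size in the simulation. In the data, far more tiles passed, with 62.3%, 48.3% and 12.5% of all tiles lower at these doses. The Benjamini-Hochberg cutoff was therefore stricter in the simulation, and the share of changes found there does not carry over to the data.

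Named tiles were, per locus, the 3 with most reads and the 5 with the smallest adjusted p for each dose. Named segments were those that passed within 1 kb. The members and lists were chosen with earlier results of these data known. Alternatives covered the read minimum, weighting, comparator, tile size, tests, the replicate block and leaving out each replicate. Python 3.11.15, numpy 2.4.6, pandas 2.3.3, scipy 1.17.1 and R 4.3.3 were used.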

Additional observations from a re-analysis of the deposited data

How the results depend on the processing

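The fall of Igh, Igk and Igl kept its direction and its call under each alternative that gave a value. No pairing of the libraries by replicate number was seen (same-numbered deviations correlated at −0.012 to 0.018 over 155762 CpGs). Read sampling at single CpGs can hide a pairing, so this check cannot decide. Values are the change at 0.2 µM in points. Beside sparse CpGs, the excess over other CpGs changed by 3.18 (Igh), 7.69 (Igk) and −1.14 (Igl). With clusters weighted equally in loci and comparator it changed by −3.48, 2.03 and −8.83, and the Igl constant minus variable gap by 3.12, or 0.941 with reads summed. With the replicate block, which also left out 2 µM replicate 3, the Igl excess (−27.0) gave an exact permutation p of 0.167. That setting had 576 assignments, and the excess of Igh and of Igk gave an exact permutation p of 0.0417 in it. Leaving out each replicate gave −29.0 to −25.1 for the Igl excess (exact permutation p 0.0286 to 0.126), −13.2 to 6.80 for the Igl gap and −7.20 to −1.81 for Igh minus Igk. The cause of these changes was not tested.

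Counts of tiles follow, in the order 0.2, 2 and 10 µM against DMSO, then 2 against 0.2, 10 against 2 and 10 against 0.2 µM. With 20 reads in every library 11 tiles were left and 9, 9, 3, 1, 1 and 5 were called. With 5 reads 82 tiles were tested, and 55, 49 and (last) 31 were called. With the dispersion prior from all tiles, added after seeing the data, the limma-moderated counts were 0 for 10 µM against DMSO, 2 against 0.2 µM and 10 against 2 µM. The replicate block gave 1 for 2 against 0.2 µM, and limma on levels 1 for 10 µM against DMSO. Leaving out each replicate gave 23 to 32, 14 to 26, 1 to 4, 0 to 4, 0 to 2 and 9 to 19. Minimums of 5 and 10 reads left 8 and 0 CpGs in Igh, 18 and 2 in Igk and 0 in Igl, so several values could not be had. The alternative of CpGs within 1 kb of a segment left no constant CpG and gave no value.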
